A study of Mus musculus with 8 samples.

Results

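The GIMAP genes, which encode the GTPases of the immunity-associated protein family, were measured in pancreatic T cells of NOD mice, which become diabetic spontaneously through autoimmunity. The members were taken by symbol and were Gimap1, Gimap3, Gimap4, Gimap5, Gimap6, Gimap7, Gimap8 and Gimap9, which are 8 of the 32285 genes listed. Their identifiers in the files are ENSMUSG00000090019 (Gimap1), ENSMUSG00000039264 (Gimap3), ENSMUSG00000054435 (Gimap4), ENSMUSG00000043505 (Gimap5), ENSMUSG00000047867 (Gimap6), ENSMUSG00000043931 (Gimap7), ENSMUSG00000064262 (Gimap8) and ENSMUSG00000051124 (Gimap9). Every member was detected, with 21347 UMIs in all T cells for Gimap7 and 96418 UMIs for Gimap1. A unique molecular identifier (UMI) marks 1 captured transcript. T cells had at least 2 UMIs over 6 genes of the CD3 complex and the T cell receptor. They were then placed in gates by raw UMIs. CD4 cells had at least 1 UMI of Cd4 and none of Cd8a or Cd8b1, and CD8 cells the reverse. CD8 cells were split into Ccl5-positive cells, with at least 1 UMI of the effector chemokine gene Ccl5, and Ccl5-zero cells. Foxp3-positive cells were T cells with at least 1 UMI of Foxp3, the transcription factor that defines regulatory T cells.

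Of the 8 libraries, 1 came from untreated mice with active diabetes (blood glucose over 600 mg/dl) and 1 from untreated mice at diabetes onset (250 mg/dl), both harvested on day 1. The other 6 came from new-onset mice (200 to 300 mg/dl) that were harvested on day 2, 3 or 4 after daily injections, with a vehicle and a PPCA library on each day. PPCA combines nutlin-3 (50 mg/kg), an inhibitor of the p53 antagonist MDM2, with MK-1775 (25 mg/kg), an inhibitor of the kinase WEE1, and the vehicle was a mix of ethanol, Tween and polyethylene glycol. All mice are labelled as female, with an age of 3 to 4 months in one label and 3 to 5 months in another. The number of mice behind a library is not given, so each library counts as 1 replicate, and p-values measure the spread between libraries.

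GIMAP proteins bind GTP and sit on membranes inside lymphocytes, on lysosomes, mitochondria or the endoplasmic reticulum depending on the member. They are known for keeping resting T cells alive: mice and rats without Gimap5 have few peripheral T cells, and the frameshift in rat Gimap5 causes the lymphopenia of the diabetes-prone BB rat. Their genes form a tandem cluster, in the order Gimap8, Gimap9, Gimap4, Gimap6, Gimap7, Gimap1, Gimap5 and Gimap3 in the reference annotation (GRCm38.p6), with Gimap6 and Gimap3 on the opposite strand to the others.

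The windows from 250 bases before to 50 after the start site of 4 members are shown, since these members moved in opposite ways in the results. Gimap7 and Gimap3 were the members higher in both Ccl5-positive CD8 and Foxp3-positive cells. Gimap5 and Gimap6 were the members that were high on day 4 in the CD4 gate and the whole CD8 gate, where most others were low. The sequences are those of RefSeq (GRCm38.p6), not of NOD, and read along the strand of the gene. They lie at chr6:48718371-48718670 (Gimap7, plus strand), chr6:48770802-48771101 (Gimap3, minus strand), chr6:48745947-48746246 (Gimap5, plus strand) and chr6:48708195-48708494 (Gimap6, minus strand). Capitals mark letters that match 1 of 8 short motifs on either strand.
Gimap7: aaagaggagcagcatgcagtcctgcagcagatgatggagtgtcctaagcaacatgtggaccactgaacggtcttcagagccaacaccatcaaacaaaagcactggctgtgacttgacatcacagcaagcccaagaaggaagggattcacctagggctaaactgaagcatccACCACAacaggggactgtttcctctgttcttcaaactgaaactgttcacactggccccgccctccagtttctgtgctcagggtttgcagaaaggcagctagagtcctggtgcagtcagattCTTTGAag
Gimap3: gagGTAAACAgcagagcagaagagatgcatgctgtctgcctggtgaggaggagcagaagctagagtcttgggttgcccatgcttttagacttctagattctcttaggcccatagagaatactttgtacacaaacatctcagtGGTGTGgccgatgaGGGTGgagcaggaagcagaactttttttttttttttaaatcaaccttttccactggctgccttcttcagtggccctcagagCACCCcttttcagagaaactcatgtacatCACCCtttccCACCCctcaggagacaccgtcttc
Gimap5: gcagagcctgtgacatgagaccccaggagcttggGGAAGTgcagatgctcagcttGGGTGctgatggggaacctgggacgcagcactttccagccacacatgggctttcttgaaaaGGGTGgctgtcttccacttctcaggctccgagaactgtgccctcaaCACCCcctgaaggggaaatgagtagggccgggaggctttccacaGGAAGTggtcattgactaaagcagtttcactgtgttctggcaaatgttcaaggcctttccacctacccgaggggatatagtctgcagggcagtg
Gimap6: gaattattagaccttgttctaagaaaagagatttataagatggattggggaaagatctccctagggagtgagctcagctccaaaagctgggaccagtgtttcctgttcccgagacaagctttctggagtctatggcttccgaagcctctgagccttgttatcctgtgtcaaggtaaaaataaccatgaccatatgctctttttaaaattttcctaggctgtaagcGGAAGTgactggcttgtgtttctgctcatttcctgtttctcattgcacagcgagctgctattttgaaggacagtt

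The motifs searched were ETS (GGAAGT), RUNX (TGTGGT), KLF (CACCC), FOXO (GTAAACA), TCF1 and LEF1 (CTTTGA), T-box (GGTGTG), AP-1 (TGANTCA) and IRF (GAAA, any 2 bases, GAAA). No match shown overlapped a match of another motif. The Gimap7 window held a RUNX match at base -79 from the start site and a TCF1 and LEF1 match at base +42. The Gimap3 window held 4 KLF matches, a T-box match and a FOXO match. The Gimap5 window held 2 ETS and 3 KLF matches, and the Gimap6 window 1 ETS match. ETS letters were in 4 members (Gimap1, Gimap5, Gimap6, Gimap9) and in 23.8% of the 32851 windows of the table. RUNX letters were in 3 members (Gimap1, Gimap4, Gimap7) and in 16.8% of all windows. KLF letters were in 5 members and 57.5% of windows, FOXO letters in Gimap3 alone among members and 3.65% of windows, TCF1 and LEF1 letters in Gimap4 and Gimap7 and 16.0% of windows, and T-box letters in Gimap3 and Gimap8 and 19.0% of windows. The AP-1 and IRF letters were in 0 members, against 7.81% and 3.44% of windows. These matches describe letters and no binding was measured.

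The files held 80470 barcodes, and 70138 cells passed the filters and the T cell gate, 6145 to 11520 per library, with medians of 3852 to 6442 UMIs per cell. The gates held 27462 CD4 cells, 21897 CD8 cells (6485 Ccl5-positive and 15412 Ccl5-zero) and 2556 Foxp3-positive cells. Cells in neither gate, which had no UMI of Cd4, Cd8a or Cd8b1 or had UMIs of both Cd4 and a CD8 gene (3117 of 20779 cells), made up 21.7% to 35.1% of T cells per library. Any 2 libraries shared 14 to 41 cell barcodes over the 28 pairs. Against the female label, 4 libraries carried Y-linked transcripts, at 186 to 272 CPM with Xist under 1 CPM (0.33 to 0.75). They were vehicle on days 2 and 3 and PPCA on days 3 and 4. The other 4 had Xist at 417 to 617 CPM and Y-linked transcripts at 0.07 to 0.17 CPM. CPM scale the summed UMIs of a gate and library to a total of 1000000. The 9 T cell markers, which summed to 5915 to 7724 CPM in CD4 cells and 6133 to 8892 CPM in CD8 cells, are the genes that chose the cells, and the filter capped B cell and myeloid genes, so their levels are no check of the gates. Among genes the gates did not use, the other regulatory T cell genes in Foxp3-positive cells, Ikzf2 (542 to 860 CPM) and Il2ra (109 to 251 CPM), were above their range in Foxp3-zero CD4 cells (15.2 to 55.3 and 4.42 to 11.1 CPM). The Foxp3-positive gate does not ask for Cd4, and 35.6% to 54.2% of its cells per library were in the CD4 gate.

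The summed level of the 8 members was highest in Foxp3-positive cells, at 1690 ± 152 CPM (SD, n = 8 libraries), followed by Ccl5-positive CD8 cells at 1466 ± 180 CPM and CD4 cells at 1393 ± 71.0 CPM. It was lowest in Ccl5-zero CD8 cells, at 1077 ± 100 CPM. The ranges of the Ccl5-zero cells (911 to 1212 CPM) and of the CD4 cells (1294 to 1504 CPM) did not overlap, while those of neighbours in the order did otherwise: Foxp3-positive cells ran from 1469 to 1874 CPM and Ccl5-positive CD8 cells from 1214 to 1688 CPM. The cells in neither gate were at 1413 ± 94.3 CPM. These are plain CPM. Between Foxp3-positive and Foxp3-zero CD4 cells, scaling by library totals alone puts the median log2 difference of all genes at 0.20, against -0.03 with the TMM scaling of the tests, and there the members' median was 0.03 with TMM, with 2 higher and 2 lower. Between Ccl5-zero CD8 and CD4 cells the same medians of all genes were -0.09 and -0.01, and between Ccl5-positive and Ccl5-zero CD8 cells 0.10 and -0.02. The sum hides members that went different ways, which the plot of each member by gate shows.

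**Figure D1:**
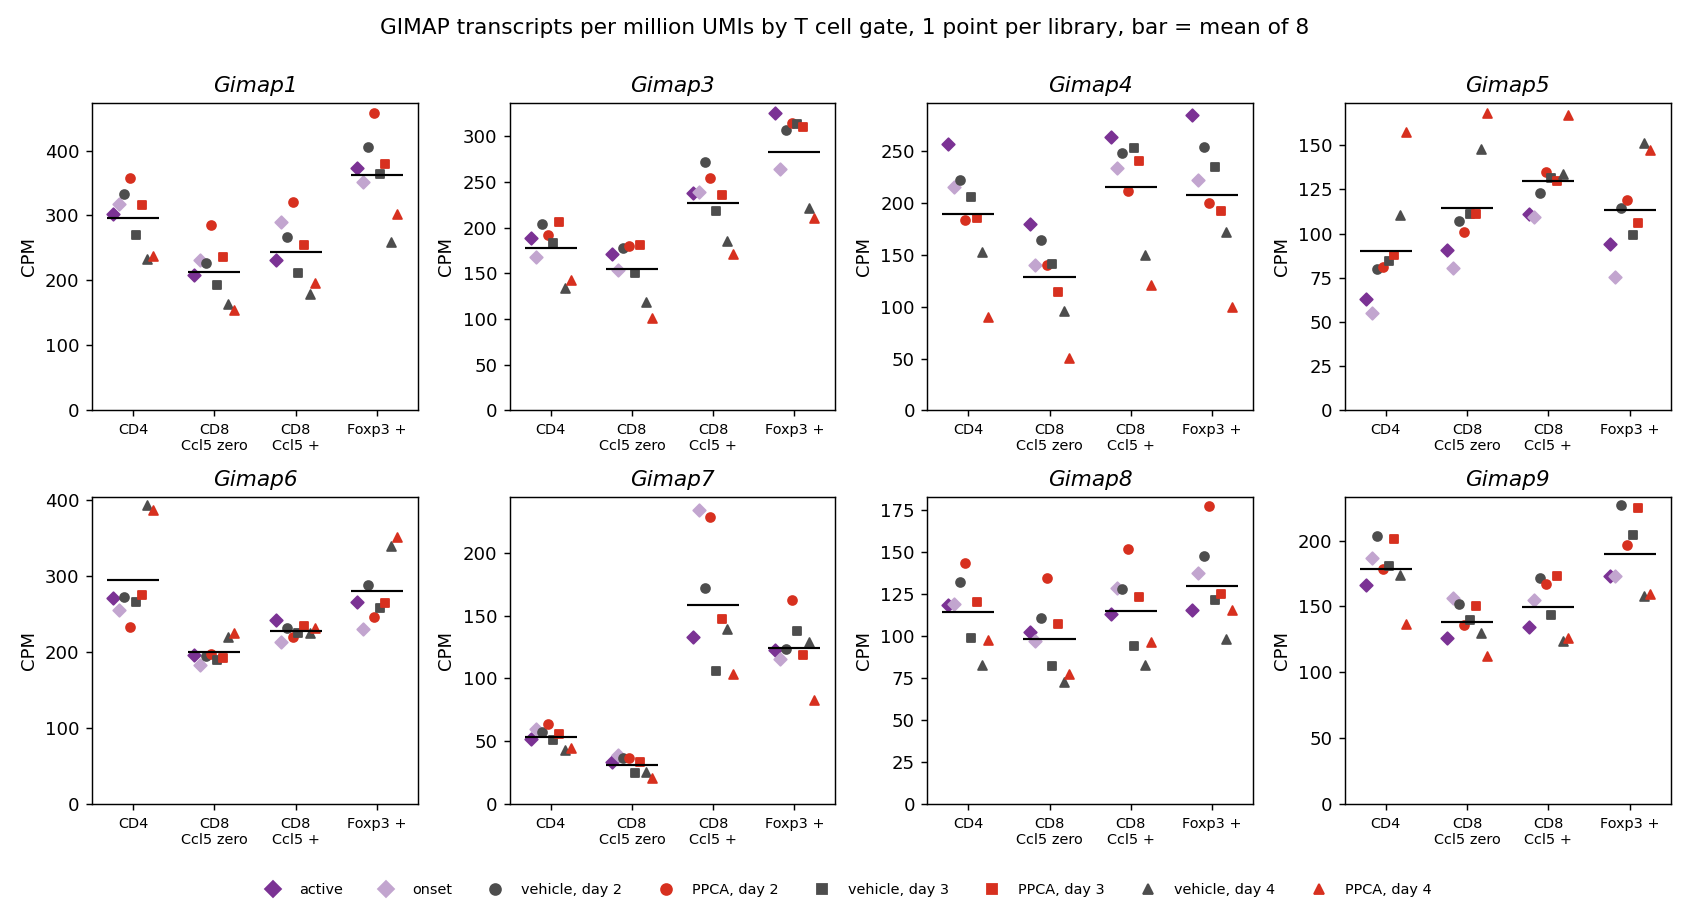
Level of each GIMAP gene in CPM (vertical axes) in 4 gates (horizontal axes), with 1 point per library and a bar at the mean of the 8. Gimap7 in Ccl5-positive CD8 cells lies between 104 and 234 CPM, above every Ccl5-zero value (20.6 to 39.3 CPM), and the day 4 triangles are highest for Gimap5 and Gimap6 in CD4 cells and lowest for Gimap4.

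Differences between gates were tested on UMIs summed per library and gate, with edgeR's quasi-likelihood test, the library as a block and TMM factors, which scale samples by the bulk of their genes. A gene was called at an adjusted p under 0.05 (Benjamini-Hochberg over all genes tested). The first question was whether members differ between CD8 cells that carry Ccl5 transcripts, as effector and memory cells do, and CD8 cells that do not. Gimap7, a GTPase that is activated by pairing with another G domain, differed most. In Ccl5-zero cells its level had a lowest value of 20.6, a median of 33.3 and a highest value of 39.3 CPM over the 8 libraries, and in Ccl5-positive cells 104, 144 and 234 CPM. Every library had more Gimap7 in its Ccl5-positive cells, and the ranges did not overlap. The difference was 4.56-fold (log2 2.19, SE 0.06, edgeR adjusted p = 1.4e-17).

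Gimap4, which has been tied to the timing of T cell death, came next: Ccl5-zero cells ranged from 50.1 over a median of 141 to 180 CPM, and Ccl5-positive cells from 121 over 237 to 263 CPM. It was 1.59-fold higher (log2 0.67, SE 0.06, adjusted p = 1.4e-08), in 8 of 8 libraries, although the ranges overlapped across libraries. Gimap3, the closest relative of Gimap5, ranged from 102 over 162 to 181 CPM and from 171 over 237 to 272 CPM. It was 1.37-fold higher (log2 0.45, SE 0.04, adjusted p = 1.2e-09), also in 8 of 8 libraries.

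In all, 5 of the 8 members were called and each of the 5 was higher, in a comparison where 41.3% of the 11384 genes tested were called, 20.6% higher and 20.8% lower. Gimap8, the largest member, and Gimap1, which mature T and B cells need, made up the other calls, with log2 differences of 0.12 (adjusted p = 0.010) and 0.09 (adjusted p = 0.028). DESeq2 called neither (0.12, adjusted p = 0.091, and 0.09, adjusted p = 0.11), nor did edgeR without the low-count filter (0.08, adjusted p = 0.18, and 0.06, adjusted p = 0.36). Gimap5 (0.08, adjusted p = 0.23), Gimap6 (0.08, adjusted p = 0.12) and Gimap9 (0.00, adjusted p = 1.0) were not called. The median of the 8 was 0.10 and the median of all genes was -0.02. Scaling by library totals alone moved the median of all genes to 0.10 and the split of calls from 2343 higher and 2364 lower to 3913 higher and 1280 lower, and called all 8 members higher. Relative to the median of all genes the values hardly moved, with Gimap7 at 2.20 in both, Gimap4 at 0.68 in both and Gimap9 at 0.02 and 0.01. In the 4 libraries without Y-linked transcripts 32.1% of genes and 3 members were called, Gimap7 (2.27), Gimap4 (0.50) and Gimap3 (0.43). Gimap1 was not called without the onset library (adjusted p = 0.065), the vehicle library of day 2 (0.11) or the PPCA library of day 4 (0.088), Gimap5 was called without the vehicle library of day 4 (0.13, adjusted p = 0.034) and Gimap6 without the PPCA library of day 4 (0.11, adjusted p = 0.034).

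Since 1 UMI of Ccl5 can be missed or can come from free RNA, the level was also followed along the Ccl5 count in CD8 cells thinned to 2000 UMIs each. Gimap7 was at 32.6 ± 9.29 CPM (SD, n = 8 libraries) in the 14780 cells with no Ccl5 UMI and at 50.4 ± 18.1 CPM in the 698 cells with 1. It reached 106 ± 52.7 CPM at 2 to 3 UMIs, 139 ± 25.5 CPM at 4 to 7 and 291 ± 72.3 CPM in the 3355 cells with 8 or more. The bin of 2 to 3 UMIs held as few as 12 cells in a library, and the order of the other bins is the same without it. Gimap3 (153 ± 31.2 to 301 ± 57.8 CPM) and Gimap4 (130 ± 42.3 to 253 ± 71.6 CPM) also had larger means in the last bin than in the first, as did Gimap1 (218 ± 49.0 to 332 ± 63.9 CPM) and Gimap8 (97.2 ± 17.2 to 145 ± 25.6 CPM). The means were closer for Gimap6 (202 ± 17.4 and 254 ± 30.3 CPM), Gimap5 (118 ± 28.9 and 144 ± 24.7 CPM) and Gimap9 (144 ± 16.5 and 161 ± 30.5 CPM). None of these bins was tested. With at least 3 Ccl5 UMIs as the gate, the log2 difference of Gimap7 was 2.61. NK cell markers, 4 genes, summed to 1.08 to 17.8 CPM in Ccl5-positive and 0.15 to 2.94 CPM in Ccl5-zero cells, with Ncr1 at 0 to 4.69 and Klrb1c at 0 to 0.58 CPM in the Ccl5-positive cells. The 4 endothelial markers summed to 25.2 to 37.5 CPM in Ccl5-positive and 46.6 to 81.3 CPM in Ccl5-zero cells, without overlap and nearly all Pecam1 (24.6 to 37.5 and 46.5 to 81.3 CPM), with Cldn5 at 0 in both. The 5 B cell markers summed to 67.0 to 166 and 119 to 254 CPM, mostly Ighm (60.1 to 154 and 109 to 231 CPM). The part of these markers in the result was not tested.

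**Figure D2:**
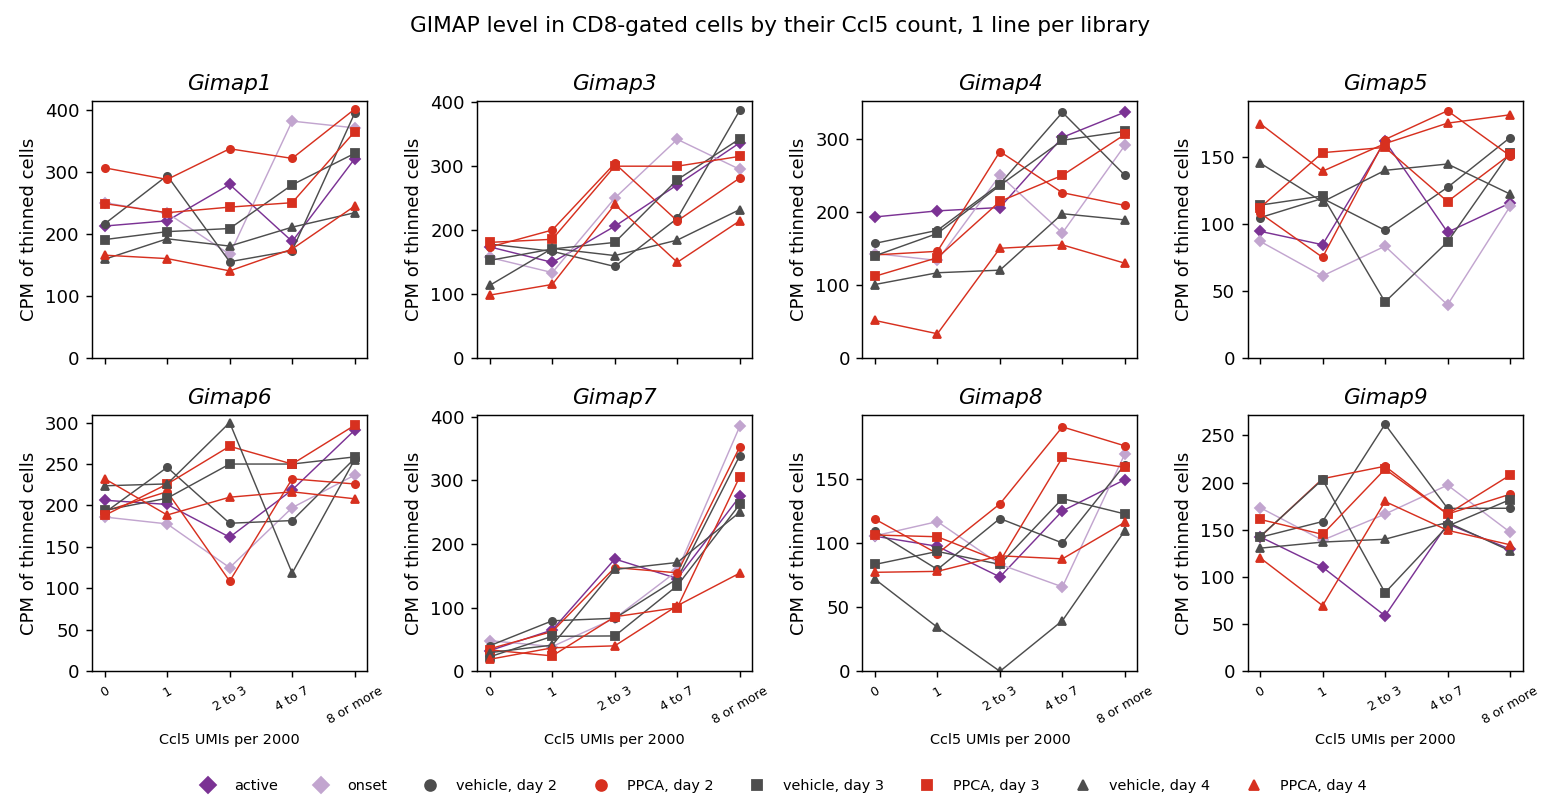
Level of each GIMAP gene in CPM (vertical axes) against the number of Ccl5 UMIs in CD8 cells thinned to 2000 UMIs (horizontal axes), with 1 line per library. The mean of Gimap7 goes from 32.6 CPM with no Ccl5 UMI to 291 CPM with 8 or more, while that of Gimap9 goes from 144 to 161 CPM.

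The share of Ccl5-positive cells among CD8 cells ran from 16.9% to 46.0% per library, and Gimap7 in the whole CD8 gate from 41.7 to 122 CPM. The PPCA library of day 2 and the onset library, with 46.0% and 43.0% Ccl5-positive cells, had the highest Gimap7 of the CD8 gate, at 122 and 116 CPM. The PPCA library of day 4, with 35.0%, was at 49.0 CPM, close to the vehicle library of day 3, with 20.3%, at 41.7 CPM.

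The next question was how CD8 cells differ from CD4 cells, which was asked of Ccl5-zero CD8 cells first. All 8 members were called, 7 lower and 1 higher in the CD8 cells, where 45.9% of 12318 genes were called, 24.1% lower and 21.8% higher. Gimap7 ranged from 43.1 over 53.9 to 63.9 CPM in CD4 cells, above every Ccl5-zero CD8 library, and was 1.64-fold lower in the CD8 cells (log2 -0.71, SE 0.05, adjusted p = 2.1e-10). Gimap6, which binds the autophagy protein GABARAPL2, ranged from 234 over 272 to 394 CPM in CD4 cells and from 183 over 196 to 226 CPM in the Ccl5-zero CD8 cells. The ranges did not overlap, and Gimap6 was 1.38-fold lower (log2 -0.47, SE 0.04, adjusted p = 1.3e-08). Gimap4 (-0.50, SE 0.03), Gimap1 (-0.41, SE 0.02), Gimap9 (-0.29, SE 0.03), Gimap8 (-0.14, SE 0.03) and Gimap3 (-0.13, SE 0.03) were lower in 8 of 8 libraries as well. Without the libraries with Y-linked transcripts Gimap3 was at -0.06 (adjusted p = 0.18) and not called. The other 7 calls stood, where 32.8% of 11983 genes were called. The endothelial sum was 72.2 to 114 CPM in CD4 cells, mostly Pecam1 (72.0 to 114 CPM), the B cell sum 109 to 223 CPM, and the B cell gene Cd79b was at 0.85 to 1.86 CPM in CD4 and 9.90 to 22.6 CPM in Ccl5-zero CD8 cells; their part in the result was not tested.

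Gimap5, the member whose loss leaves few T cells, went the other way. Its level in CD4 cells ran from 55.2 over a median of 83.0 to 157 CPM, and in Ccl5-zero CD8 cells from 80.8 over 109 to 168 CPM. It was higher in the CD8 cells of 8 of 8 libraries, 1.37-fold (log2 0.46, SE 0.04, adjusted p = 1.9e-09), although the groups overlapped because libraries differed. Over all CD8 cells against CD4 cells 7 members were called, where 45.3% of 12627 genes were, with 2 higher (23.1% of genes) and 5 lower (22.2%). Gimap5 was 1.41-fold higher there (log2 0.49, SE 0.05) and Gimap7 1.31-fold higher (log2 0.39, SE 0.11), the latter in 6 of 8 libraries only and not called by DESeq2 (0.36, adjusted p = 0.051). The 5 lower members were Gimap6 (-0.44), Gimap1 (-0.38), Gimap9 (-0.29), Gimap4 (-0.27) and Gimap8 (-0.10). In the 4 libraries without Y-linked transcripts Gimap8 was not called (-0.09, adjusted p = 0.11). Gimap3 did not pass (0.03, adjusted p = 0.51). The level of Gimap7 in CD4 cells (43.1 to 63.9 CPM) thus lay between those of Ccl5-zero (20.6 to 39.3 CPM) and Ccl5-positive CD8 cells (104 to 234 CPM), without overlap, and its value over all CD8 cells mixes both. Scaling by library totals alone moved the split of calls from 2914 higher and 2807 lower to 2200 and 3636 over all CD8 cells, and from 2685 and 2970 to 1676 and 4588 in Ccl5-zero cells, and called the same number of members in the same directions (7 and 8).

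**Figure D3:**
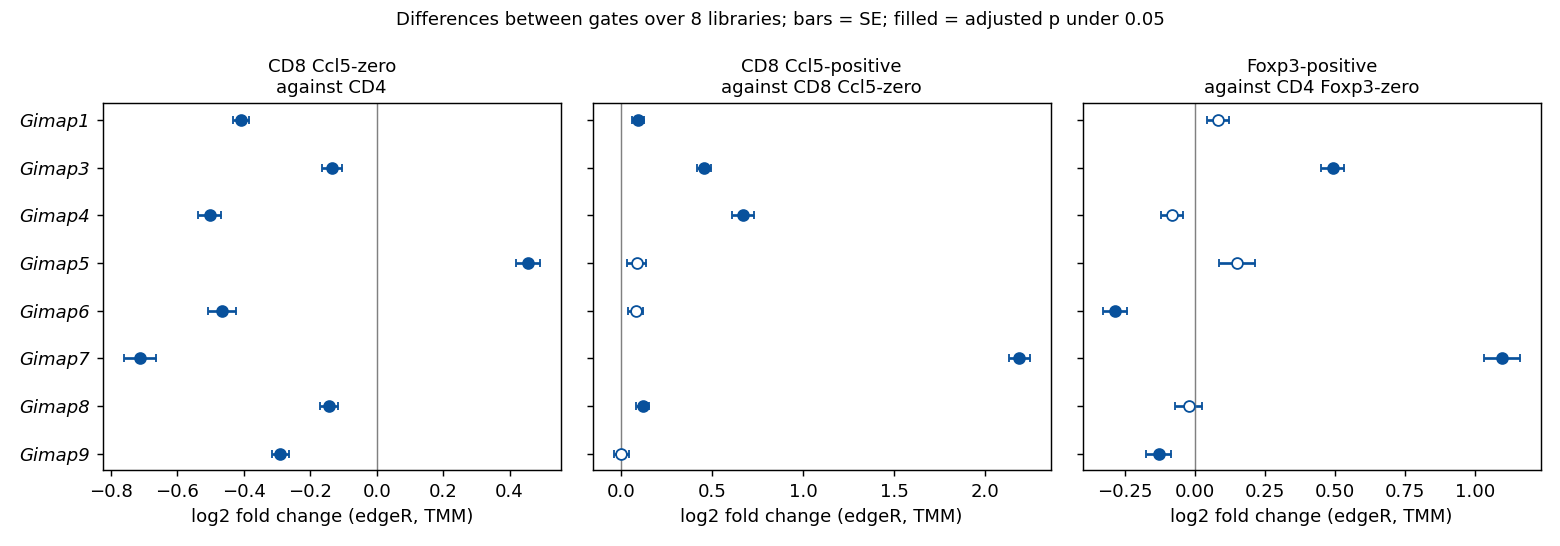
Differences between gates as log2 fold changes (horizontal axes) of each member (vertical axis) from the edgeR fits over 8 libraries, with bars of 1 SE and filled points at an adjusted p under 0.05; the axes differ in range. Gimap7 lies at -0.71, 2.19 and 1.10 in the 3 panels, and Gimap5 is the member above 0 in the first.

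Foxp3-positive cells were compared with CD4 cells without Foxp3. Gimap7 ranged from 41.2 over a median of 50.3 to 57.6 CPM in Foxp3-zero CD4 cells and from 82.8 over 123 to 162 CPM in Foxp3-positive cells. The ranges did not overlap, and the difference was 2.14-fold (log2 1.10, SE 0.06, adjusted p = 1.1e-15). Gimap3 ranged from 132 over 180 to 200.3 CPM and from 210 over 309 to 325 CPM. It did not overlap either and was 1.41-fold higher (log2 0.49, SE 0.04, adjusted p = 5.3e-12). Both were higher in 8 of 8 libraries, and in the 4 libraries without Y-linked transcripts the differences were 1.15 and 0.54.

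By edgeR 4 members were called, 2 higher and 2 lower, where 38.6% of 12179 genes were called, 18.2% higher and 20.4% lower. The lower calls were Gimap6 (-0.29, SE 0.04, adjusted p = 8.9e-07) and Gimap9 (-0.13, SE 0.05, adjusted p = 0.022), and both depended on scaling: as plain CPM, Gimap6 was lower in 6 of 8 libraries and Gimap9 in 2 of 8. With library totals alone in place of TMM factors the median of all genes moved from -0.03 to 0.20 and the calls from 2215 higher and 2481 lower to 4812 higher and 876 lower. Gimap6 was then at -0.06 (adjusted p = 0.22) and Gimap9 at 0.10 (adjusted p = 0.084), Gimap4 went from -0.08 to 0.14 and Gimap8 from -0.02 to 0.20, and 6 members were called, each higher. Relative to the median of all genes Gimap6 was at -0.26 under both scalings, Gimap9 at -0.10, Gimap7 at 1.12 and Gimap3 at 0.52. Gimap5 was at 0.15 (adjusted p = 0.062) and Gimap1 at 0.08 (adjusted p = 0.088), neither called. Gimap9 was not called without the active library (adjusted p = 0.051), the onset library (0.11) or the vehicle library of day 4 (0.11). Of the 19 alternatives run for Gimap9 here, 9 lost the call with the direction kept, and its values ran from -0.22 to 0.10. Gimap1 was called without the onset library (0.10, adjusted p = 0.045) or the vehicle library of day 4 (0.11, adjusted p = 0.025), and Gimap5 without the vehicle library of day 3 (0.18, adjusted p = 0.036) or the PPCA library of day 4 (0.23, adjusted p = 0.0013). With Foxp3-positive cells of the CD4 gate alone, Gimap7 was at 1.15 and Gimap3 at 0.45, and Gimap9 was not called (-0.10, adjusted p = 0.23). The 5 B cell markers summed to 248 to 415 CPM in Foxp3-positive and 104 to 210 CPM in Foxp3-zero CD4 cells, nearly all of it Ighm (244 to 407 and 102 to 209 CPM), with Ms4a1 at 0 to 1.00 CPM in Foxp3-positive cells; their part in the result was not tested.

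The effect of PPCA was read against vehicle on the same day, with 3 libraries a group and 2 residual degrees of freedom. No member passed in CD4, CD8, Ccl5-positive CD8, Ccl5-zero CD8 or Foxp3-positive cells (0 of 8 in each). Of all genes 0% were called in CD4 cells, 0.0167% in CD8 cells, 0.00971% in Ccl5-positive CD8 cells, 0% in Ccl5-zero CD8 cells and 0.0684% in Foxp3-positive cells, so a count of 0 members was near the background. In each of the 5 gates 1 of 8 members had an unadjusted p under 0.05, and it was Gimap4. Of all genes 6.9%, 7.98%, 6.34%, 7.5% and 6.76% were below that level in the 5 gates in the order above.

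Gimap4 in CD4 cells was at 222, 206 and 153 CPM under vehicle and at 184, 186 and 89.9 CPM under PPCA on days 2, 3 and 4. In Ccl5-zero CD8 cells it was at 164, 141 and 96.3 CPM under vehicle and at 141, 114 and 50.1 CPM under PPCA. Each PPCA library was below the vehicle library of its day, with the widest gap on day 4, and the groups overlapped because the vehicle library of day 4 was itself low. The log2 difference was -0.48 in CD4 cells (SE 0.12, adjusted p = 0.58) and -0.57 in Ccl5-zero CD8 cells (SE 0.13, adjusted p = 0.44). It was -0.42 in CD8 cells (SE 0.10, adjusted p = 0.43), -0.28 in Ccl5-positive CD8 cells (SE 0.10, adjusted p = 0.72) and -0.50 in Foxp3-positive cells (SE 0.13, adjusted p = 0.29). Gimap4 was lower on all 3 days in each gate, as were 5.71%, 5.21%, 6.32%, 6.15% and 9.86% of genes averaging at least 10 CPM in CD4, CD8, Ccl5-positive CD8, Ccl5-zero CD8 and Foxp3-positive cells.

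The call on Gimap4 depended on the fit. With the presence of Y-linked transcripts as a further factor, which leaves 1 residual degree of freedom, it passed in CD4 (adjusted p = 0.044), CD8 (0.0077), Ccl5-zero CD8 (9.8e-07) and Foxp3-positive cells (0.0096) and not in Ccl5-positive CD8 cells (0.14). That fit called 0.637%, 1.98%, 2.87%, 1.4% and 1.71% of all genes in these 5 gates in the same order, against at most 0.0684% without the factor. DESeq2 called it in Ccl5-zero CD8 cells (adjusted p = 0.037) and not in CD4 (0.33), CD8 (0.28), Ccl5-positive CD8 (1.0) or Foxp3-positive cells (1.0), where it called 0.708% of the genes with an adjusted p in Ccl5-zero CD8 cells and 0.192%, 0.283%, 1.24% and 0.0681% in the others. Without the low-count filter it passed in CD4 (0.032) and Ccl5-zero CD8 cells (0.00016), where 0.796% and 0.874% of all genes did, against 0% in both with the filter. Without the day 4 pair the log2 difference was -0.31 in CD4 cells and -0.39 in Ccl5-zero CD8 cells, and neither passed. The PPCA and vehicle libraries of day 3 both carried Y-linked transcripts, and there the CPM ratio of Gimap4 was -0.15 (log2) in CD4 cells and -0.31 in Ccl5-zero CD8 cells. On days 2 and 4 the arms differed in these transcripts, and treatment and the presence of Y-linked transcripts cannot be told apart within either pair. Restricting the comparison to libraries without Y-linked transcripts leaves the PPCA library of day 2 and the vehicle library of day 4, and no test.

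In CD4 cells the plain CPM of 4 of 8 members were above those of vehicle on all 3 days, as were those of 25.3% of genes averaging at least 10 CPM. They were Gimap1, Gimap5, Gimap7 and Gimap8, with log2 CPM ratios of 0.03 to 0.22, 0.02 to 0.51, 0.06 to 0.16 and 0.12 to 0.28, and none passed (adjusted p = 0.96, 0.89, 0.96 and 0.81). In each of the other 4 gates it was 2 of 8, Gimap8 with Gimap1 or, in Ccl5-zero CD8 cells, with Gimap6, where 27.4% (CD8), 22.5% (Ccl5-positive CD8), 24% (Ccl5-zero CD8) and 18.6% (Foxp3-positive) of genes were. Scaling by library totals alone puts the median log2 difference of all genes at 0.05 to 0.09 in the 5 gates. Gimap7 in Ccl5-positive CD8 cells was at 172, 106 and 140 CPM under vehicle and 228, 148 and 104 CPM under PPCA, higher on days 2 and 3 and lower on day 4. The difference of the PPCA effect between CD8 and CD4 cells was tested as an interaction, which called 0 of 8 members and 0.00803% of genes, with 0 members and 3.65% of genes at an unadjusted p under 0.05. DESeq2 also called 0 members in the CD4, CD8, Ccl5-positive CD8 and Foxp3-positive comparisons and in the interaction.

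**Figure D4:**
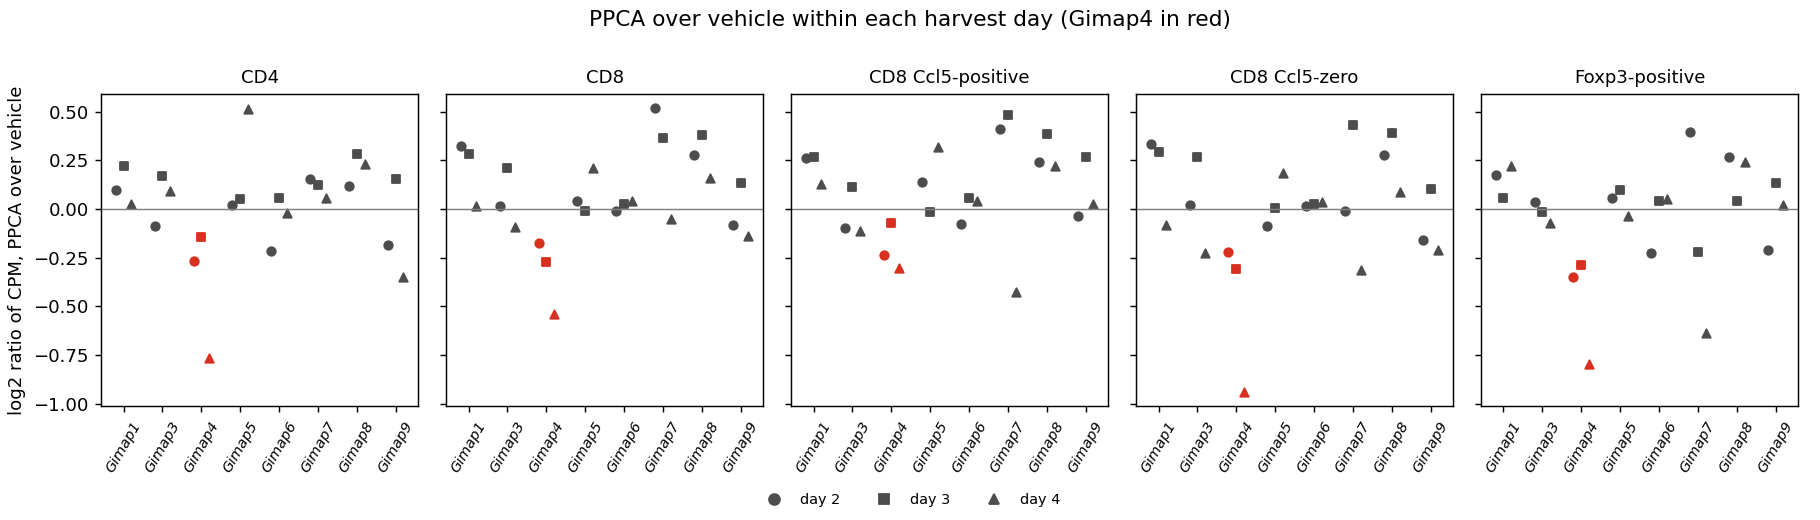
Log2 ratio of CPM, PPCA over vehicle, of each member (horizontal axes) within harvest days 2, 3 and 4 in 5 gates, with 1 point per day. Gimap4, in red, is below 0 on each day in each gate, from -0.07 to -0.94.

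The libraries of day 4 stood apart, a pattern chosen after the values were seen and given without a test. In CD4 cells Gimap5 was at 110 and 157 CPM in the vehicle and PPCA libraries of day 4 and at 55.2 to 87.7 CPM in the other 6. Gimap6 was at 394 and 387 CPM on day 4 and at 234 to 276 CPM in the others. Both day 4 libraries, treated or not, lay above the other 6 for these members. Gimap1, Gimap3, Gimap4, Gimap7 and Gimap8 were below the other 6 in both day 4 libraries, with Gimap4 at 153 and 89.9 CPM against 184 to 257 CPM. Gimap9 overlapped. Among genes averaging at least 10 CPM, 10.2% lay above the other 6 in both day 4 libraries in CD4 cells and 25.5% below. In the whole CD8 gate Gimap5 and Gimap6 were again above (8.38% of genes) and Gimap1, Gimap3, Gimap4 and Gimap8 below (26.5%), and Gimap7 and Gimap9 overlapped. Within Ccl5-zero CD8 cells Gimap5 was at 148 and 168 CPM on day 4 against 80.8 to 111 CPM in the others. Gimap6 was at 220 and 226 CPM there against 183 to 197 CPM. Within Ccl5-positive CD8 cells both overlapped. Gimap5 was at 134 and 167 CPM there against 109 to 135 CPM, and Gimap6 at 226 and 232 CPM against 213 to 242 CPM. The Gimap6 gap was 0.57 (log2) in CD4 cells and 0.15 in CD8 cells. The Gimap5 gap was 0.83 and 0.54. T cells of day 4 had median depths of 4950.5 (vehicle) and 3852 UMIs (PPCA), and median mitochondrial shares of 2.70% and 2.39%, against 4139 to 6442 UMIs and 1.95% to 4.49% in the other 6, and their part in the pattern was not tested. The B cell and endothelial marker sums were also below the other 6 in both day 4 libraries, in CD4 cells at 141 and 109 CPM against 178 to 223, and at 78.6 and 72.2 CPM against 103 to 114. In CD8 cells the regulatory T cell sum was above, at 94.2 and 134 CPM against at most 74.0 in the others. Of its genes Ctla4 reached 112 CPM in CD8 cells, while Ikzf2 was at most 37.5, Foxp3 7.01 and Il2ra 5.37 CPM over all libraries. The pancreas sum was also above (58.4 and 34.7 CPM against 6.77 to 34.5), and the part of these markers was not tested. Without both day 4 libraries the gate differences of Gimap7 were 2.17 (Ccl5-positive against Ccl5-zero), -0.67 (Ccl5-zero against CD4) and 1.11 (Foxp3-positive), and Gimap5 was higher in Ccl5-positive than in Ccl5-zero cells (0.20, adjusted p = 0.00068), as was Gimap6 (0.15, adjusted p = 0.0048). In Foxp3-positive cells Gimap5 (0.24, adjusted p = 0.0024) and Gimap1 (0.11, adjusted p = 0.026) were then called higher. Calls lost without the day 4 libraries were Gimap1 between Ccl5-positive and Ccl5-zero CD8 cells (0.09, adjusted p = 0.061) and Gimap9 in Foxp3-positive cells (-0.10, adjusted p = 0.090).

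Active and onset diabetes had 1 library each, so their values carry counting error only and no test. In CD8 cells Gimap7 was at 57.2 CPM in the active and 116 CPM in the onset library, 2.03-fold apart, where 5.29% of genes averaging at least 10 CPM were at least 1.5-fold apart. Within Ccl5-positive CD8 cells it was at 133 CPM (95% Poisson interval 123 to 144) and 234 CPM (220 to 248), 1.75-fold apart, where 8.16% of genes were at least 1.5-fold apart. Within Ccl5-zero cells it was at 33.4 and 39.3 CPM. The 7 other members were under 1.5-fold apart in each gate, as all 8 were in CD4 cells, where 3.5% of genes were past that fold, in Ccl5-zero CD8 cells (4.06%) and in Foxp3-positive cells (15.5%). Ccl5-positive cells made up 24.5% of the CD8 cells of the active and 43.0% of those of the onset library.

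Members were also compared with each other over 32 profiles, the 8 libraries in 4 gates that shared no cells. These were Foxp3-zero CD4, Foxp3-positive, Ccl5-zero CD8 and Ccl5-positive CD8 cells, here with the CD8 cells that had a Foxp3 UMI left out. The profiles share libraries and depth, so correlations are descriptive. The log2 level of Gimap1 followed that of Gimap8 (Pearson r = 0.88) and Gimap9 (0.86), and Gimap3 followed Gimap7 (0.82). With the mean of each gate subtracted, Gimap5 and Gimap6 followed each other (0.77), Gimap1 followed Gimap8 (0.94) and Gimap3 (0.85), and Gimap4 ran against Gimap5 (-0.80). Each of the 12 pairs that join Gimap5 or Gimap6 with another member was negative after that subtraction. Each of the 15 pairs among the other 6 members was positive. The subtraction leaves the differences between libraries, among them those of day 4 described above, so these signs are not a separate observation. The part of day 4 in them was not tested.

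Of 2689 genes averaging at least 50 CPM, those most like the summed GIMAP level over the 32 profiles were Ucp2 (r = 0.94), which encodes a mitochondrial carrier, Sept9 (0.92), a septin gene, Tmbim6 (0.91), St8sia4 (0.91), a sialyltransferase gene, and Ctsb (0.91), which encodes the lysosomal protease cathepsin B. The genes with the lowest r encode ribosomal proteins: Rpl13 (-0.92), Rpsa (-0.91), Rps3a1 (-0.91), Rpl6 (-0.90) and Rpl32 (-0.90). With gate means subtracted the most like were Mbnl1 (0.91), an RNA splicing factor gene, Stx16 (0.91), Golga4 (0.90), Lbh (0.90) and Ms4a4b (0.90). Each member is itself part of the sum, so its r is not comparable with that of a gene outside the family. Against the same sum without that subtraction, Gimap5 had r = -0.15 and Gimap6 0.39, and the other 6 members 0.73 to 0.91. With gate means subtracted, Gimap5 had r = -0.47 and Gimap6 -0.39, and the other 6 members 0.70 to 0.91.

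Other genes of lymphocyte survival were read from lists, against 20.6% of all genes higher and 20.8% lower between Ccl5-positive and Ccl5-zero CD8 cells, and 18.2% and 20.4% between Foxp3-positive and Foxp3-zero CD4 cells. Of 11 genes of resting T cells, 10 were lower and 0 higher in Ccl5-positive than in Ccl5-zero CD8 cells, with a median of -0.71 against -0.02 over all genes, led by Lef1 (-1.19), Bach2 (-1.16) and Ccr7 (-1.08). In Foxp3-positive cells 10 were lower and 0 higher (median -0.62 against -0.03), led by Lef1 (-1.64), Il7r (-1.29), the interleukin 7 receptor, Satb1 (-1.09) and Tcf7 (-1.05). In Ccl5-zero CD8 against CD4 cells 7 were lower and 2 higher (median -0.22 against -0.01), where 24.1% of all genes were lower and 21.8% higher. Of 12 BCL2 family genes, which set the threshold for cell death, 6 were higher and 1 lower in Ccl5-positive CD8 cells (median 0.14), with Bcl2a1d at 3.33, Bcl2a1b at 1.69, Bcl2l1 at 0.70 and Pmaip1 at 0.69. In Foxp3-positive cells 7 were higher and 1 lower (median 0.33), with Pmaip1 at 1.98, Bcl2a1b at 1.52, Bcl2a1d at 1.45 and Bcl2l1 at 1.10; Bcl2a1b and Bcl2a1d are near copies, whose reads counting could have split.

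Of 10 activation genes, 4 were higher in Ccl5-positive CD8 cells, where 20.6% of all genes were (median -0.06 against -0.02 over all genes), led by Pdcd1 (3.49), the PD-1 receptor gene, and Cd44 (1.81), and 7 in Foxp3-positive cells, where 18.2% of all genes were (median 1.15 against -0.03), led by Tnfrsf4 (3.37) and Tnfrsf9 (3.28), with 0 lower in either. In Ccl5-zero CD8 against CD4 cells 0 activation genes were higher and 7 lower (median -0.56 against -0.01 over all genes). There 21.8% of all genes were higher and 24.1% lower. Of 7 genes of proteins described as binding GIMAP proteins, 5 were higher in Ccl5-positive CD8 cells (median 0.17). Among them Gabarapl1 was at 1.64 and Gabarapl2, the partner of Gimap6, at 0.46. In Foxp3-positive cells 4 were higher and 1 lower (median 0.13), with Gabarapl1 at 2.11 and Gabarapl2 at -0.19. In Ccl5-zero CD8 against CD4 cells 1 was higher and 5 lower (median -0.08), with Gabarapl2 at -0.36. None of the 4 lists had a member called between PPCA and vehicle in any gate. The reference annotation has 51 other genes within 500 kb of the cluster, of which 30 were in the files and 4 averaged at least 10 CPM. Of the 16 tested in the Ccl5 comparison 3 were higher and 0 lower (median 0.01), near the 20.6% of all genes called higher, with Atp6v0e2 at 1.76. In Foxp3-positive cells 3 of 16 were higher and 1 lower (median -0.01), near the 18.2% of all genes called higher, with Zfp467 at 0.95. Gimap1os, annotated antisense to Gimap1, was at 18.8 ± 4.11 CPM in CD4 and 10.5 ± 2.09 CPM in Ccl5-zero CD8 cells. Gimap1os and Gimap1 are counted as separate genes. Whether counting used strand is not given in the sources used here, and whether reads of one were counted for the other was not tested. Between the transcripts of 2 members, 31-base stretches were shared by 1 of the 28 pairs, Gimap3 and Gimap5 (17.4% of the shorter), and by none within the last 400 bases, where 3′ counting reads.

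The authors' deposited table lists marker genes of 7 clusters and names members in 13 of its 2100 rows. Its log2 fold changes set a named cluster against other cells, which is not the same comparison as those between gates above. In the authors' deposited table the cluster called CD8 TRM TEM has Gimap7 at a log2 fold change of 1.35, Gimap3 at 0.57, Gimap5 at 0.32 and Gimap4 at 0.30. The CD4 Treg cluster of the authors' deposited table has Gimap3 at 0.61, Gimap7 at 0.59, Gimap1 at 0.43 and Gimap8 at 0.29. Its CD4 Th17 cluster has Gimap3 at 0.64, Gimap7 at 0.38 and Gimap4 at 0.26 in the authors' deposited table. Gimap6 is listed there for CD4 Naive cells (0.28) and Gimap4 for CD4 Th1 cells (0.28), and Gimap9 has no row in the authors' deposited table, which holds fold changes from 0.25 upward.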

How the data were processed

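Single-cell RNA was measured in 8 libraries of CD45+ CD3+ T cell receptor beta-positive cells sorted from mouse pancreas. The authors deposited raw UMI counts per gene and cell barcode. Cell Ranger 6.1.2 and Seurat were used, per the submitters' processing notes, and the matrices name Cell Ranger 6.0.0, per the file headers; no build of the genome is given in the sources used here. The authors' deposited table of cluster markers holds log2 fold changes, p-values and the fraction of cells with a gene detected, per the file headers; its p-values were not used.

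Cells with at least 500 genes, under 10% mitochondrial UMIs and at most 1 UMI over 6 B cell and myeloid genes were kept. The barcodes with the highest Scrublet scores (0.8% per 1000 barcodes) were removed, since Scrublet's own threshold marked 0 or 1 barcode per library (scanpy 1.11.5, Python 3.11.15). Counts were summed per library and gate and fitted with edgeR 4.0.16 (R 4.3.3; quasi-likelihood test, TMM, filterByExpr, Benjamini-Hochberg adjustment, called at an adjusted p under 0.05). Gates were compared with library as a block (7 residual degrees of freedom), and PPCA with vehicle with harvest day as a block. Same-day libraries deviated together in each gate and day (correlation 0.18 to 0.68), so the day pairs them. Active and onset libraries have no replicate, and their intervals are exact Poisson and cover counting error only. Alternatives included DESeq2 1.42.0, other scaling, filters and gates, cells thinned to 2000 UMIs and libraries left out. Leaving out both day 4 libraries, and scaling by library totals alone, were chosen after seeing the data.

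The 8 members were the genes to name in each comparison (where the text gives only some, the others stand in the counts), and in each list up to 4 genes past the threshold with the largest differences. The 5 genes most and least like the family were ranked among genes averaging at least 50 CPM, leaving out the genes of the gates. Single neighbours of the locus named in the text were chosen after their values were seen. The members and the lists were chosen with earlier results of these data known. Values of some single genes are not reported here.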

Additional observations from a re-analysis of the deposited data

How the results depend on the processing

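Of the 24 member results that passed the threshold, 441 alternatives were run: 406 kept the direction and the call, 34 lost the call and 1 reversed (Gimap9 in Foxp3-positive cells, 0.10 with library totals alone). Without the replicate block, that is, without pairing gates within libraries, 3 members were called between CD8 and CD4 cells, 3 between Ccl5-positive and Ccl5-zero cells, 4 between Ccl5-zero CD8 and CD4 cells and 2 in Foxp3-positive cells, where 17.5%, 19.3%, 16.8% and 21.6% of all genes were. In the Ccl5 comparison 3 members were called by DESeq2 (23.7% of genes), 3 without the low-count filter (25.4%), 3 in the 4 libraries without Y-linked transcripts (32.1%) and 8 with library totals alone (45.6%). Between PPCA and vehicle 1 member, Gimap4, was called without the low-count filter in CD4 (0.796% of genes) and in Ccl5-zero CD8 cells (0.874%), 1 by DESeq2 in Ccl5-zero CD8 cells (0.708%), and 1 with Y-linked transcripts as a factor in CD4 (0.637%), CD8 (1.98%), Ccl5-zero CD8 (2.87%) and Foxp3-positive cells (1.4%). Leaving out 1 library at a time called 7 members between CD8 and CD4 cells each time (41.4% to 43.8% of genes). It called 4 to 6 in the Ccl5 comparison (37.3% to 40.3%) and 8 between Ccl5-zero CD8 and CD4 cells (42.2% to 44.2%). In Foxp3-positive cells it called 3 to 5 (35.1% to 37.6%). Leaving out 1 day called 0 members between PPCA and vehicle, where 0% to 2.42% of genes were called. The cause of these changes was not tested.

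Other reversals were of members that had not passed. Between CD8 and CD4 cells Gimap3 was at -0.033 with thinned cells and -0.015 with library totals alone (-0.0035 to 0.049 with 1 library left out). In the Ccl5 comparison Gimap9 was at -0.00033 with DESeq2 size factors, -0.00054 with DESeq2, -0.035 without the low-count filter, -0.045 thinned and -0.048 in the libraries without Y-linked transcripts (-0.027 to 0.027 with 1 library left out). In Foxp3-positive cells library totals alone gave Gimap4 0.14 and Gimap8 0.20, and Gimap8 was at 0.10 thinned and 0.010 without the replicate block (-0.052 to 0.0092 with 1 library left out). Between PPCA and vehicle, library totals alone gave Gimap3 0.058 in CD4, 0.044 in CD8 and 0.021 in Ccl5-zero cells, Gimap5 0.082 in CD8, 0.035 in Ccl5-zero and 0.039 in Foxp3-positive cells, Gimap6 0.019 in CD8, 0.0050 in Ccl5-positive and 0.025 in Ccl5-zero cells, and Gimap7 0.043 in Ccl5-zero cells. Without doublet removal and with the T cell gate alone, Gimap5 was at 0.0083 and 0.013 in CD8 cells and at 0.087 and 0.072 in Foxp3-positive cells, Gimap7 at 0.019 and 0.015 in Ccl5-zero cells, and Gimap9 at -0.034 and -0.039 in Ccl5-positive cells. Without the replicate block Gimap5 was at 0.020 in CD8 cells.

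With 1 day left out, ranges that crossed 0 were, in CD4 cells, Gimap3 -0.064 to 0.027, Gimap5 -0.069 to 0.23 and Gimap7 -0.014 to 0.065, and in CD8 cells Gimap5 -0.11 to 0.086. In Ccl5-positive cells they were Gimap5 -0.062 to 0.21, Gimap7 -0.066 to 0.32 and Gimap9 -0.028 to 0.060. In Ccl5-zero cells they were Gimap3 -0.13 to 0.022, Gimap5 -0.17 to 0.030, Gimap6 -0.10 to 0.0020 and Gimap7 -0.19 to 0.099. In Foxp3-positive cells they were Gimap5 -0.035 to 0.013, Gimap7 -0.48 to 0.026 and Gimap9 -0.11 to 0.011, and in the interaction Gimap3 -0.060 to 0.053 and Gimap4 -0.033 to 0.15.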
